A study of Mus musculus with 6 samples.

Results

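ABC transporters are membrane pumps that use ATP, and their genes are described here across 6 mouse liver tumours, subfamily by subfamily. Members were chosen by name: every gene whose symbol is Abc, a subfamily letter from a to g and a number, apart from 2 exporters of bile salts and conjugates. This gave 48 of the 55291 genes listed, with 16 in subfamily A, 9 in B, 9 in C, 4 in D, 1 in E, 3 in F and 6 in G. All tumours were RIL-175/PD-1R tumours, RIL-175 being a single mouse hepatocellular carcinoma line, and every host was treated with anti-PD-1, which frees T cells from an inhibitory signal. The hosts of the Cre_PD1 group (n = 3) were LysM-Cre mice, and the hosts of the MKO_PD1 group (n = 3) were Trem2-MKO mice, in which Trem2 is knocked out in myeloid cells. LysM-Cre, which is carried by the controls too, drives Cre from the lysozyme 2 gene in macrophages, monocytes and granulocytes, so other host cells and the tumour cells are not its targets. The age and sex of the mice, and what PD-1R stands for, are not given in the sources used here. Each tumour was 1 bulk library of polyadenylated RNA, and the comparison asks how loss of the lipid receptor Trem2 from myeloid cells bears on tumours under anti-PD-1.

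An ABC transporter couples ATP hydrolysis at a pair of nucleotide-binding domains to the passage of a substrate through membrane-spanning domains. In liver, members at the canalicular face of hepatocytes secrete phospholipid, sterol and conjugates into bile, members at the sinusoidal face return conjugates to blood, and others serve peroxisomes, mitochondria and lysosomes. In macrophages, Abca1 and Abcg1 export cholesterol and are textbook targets of the liver X receptors. Abcb1a and Abcb1b, the mouse P-glycoproteins, and several members of subfamily C are known for pumping drugs out of tumour cells. The subfamilies E and F lack membrane spans and act on ribosomes.

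The libraries stood apart in the levels of marker genes of several cell types. The 24 genes of a hepatocyte list took 2.12, 3.87 and 3.89% of the summed TPM (a read level per exon length, scaled to 1000000 in each library) in Cre_PD1, and 19.4, 4.89 and 13.9% in MKO_PD1. Values are always given in the order of replicates 1, 2 and 3. All 24 had a log2 difference above 0, and none was at 0 reads in every library. The 10 genes of a bile duct and epithelial tumour list took 1.83 to 2.49% in Cre_PD1 and 0.251 to 0.997% in MKO_PD1, and all 10 had a difference below 0. The 12 macrophage genes took 0.277 to 0.370% in Cre_PD1 and 0.345, 0.710 and 0.372% in MKO_PD1, and all 12 had a difference above 0. Bulk RNA cannot tell fewer cells of a type from less RNA per cell. Trem2 was at 10.5, 16.5 and 14.9 TPM in Cre_PD1 and 7.68, 18.0 and 6.81 TPM in MKO_PD1, so the groups overlapped. Its reads were counted over the whole gene and the deleted part is not named, so this does not check the deletion. The libraries held 26563885 to 34017859 recovered reads.

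The family as a whole was at similar summed levels in the 2 groups, while its make-up differed. The 48 members summed to 823, 827 and 988 TPM in Cre_PD1 and to 850, 1002 and 960 TPM in MKO_PD1, ranges that overlap. Subfamily G made up 5.79 ± 1.83% of that sum in Cre_PD1 and 11.4 ± 2.78% in MKO_PD1 (SD, n = 3 each). Subfamily A made up 16.5 ± 1.27% and 22.4 ± 0.464%, and no MKO_PD1 library reached down to a Cre_PD1 library in either. Subfamily B went from 18.1 ± 0.210% in Cre_PD1 to 12.7 ± 1.16% in MKO_PD1, subfamily E from 8.30 ± 1.26% to 5.03 ± 1.71%, and subfamily F from 24.3 ± 1.35% to 17.1 ± 2.98%. Subfamily C made up 15.4 ± 1.15% and 18.8 ± 2.20%, with only a narrow gap between the highest Cre_PD1 library (16.4%) and the lowest MKO_PD1 library (16.5%). Subfamily D overlapped, at 11.7 ± 0.974% and 12.5 ± 1.86%. The shares depend on each other, since they add up to a whole, and they were not tested.

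**Figure D1:**
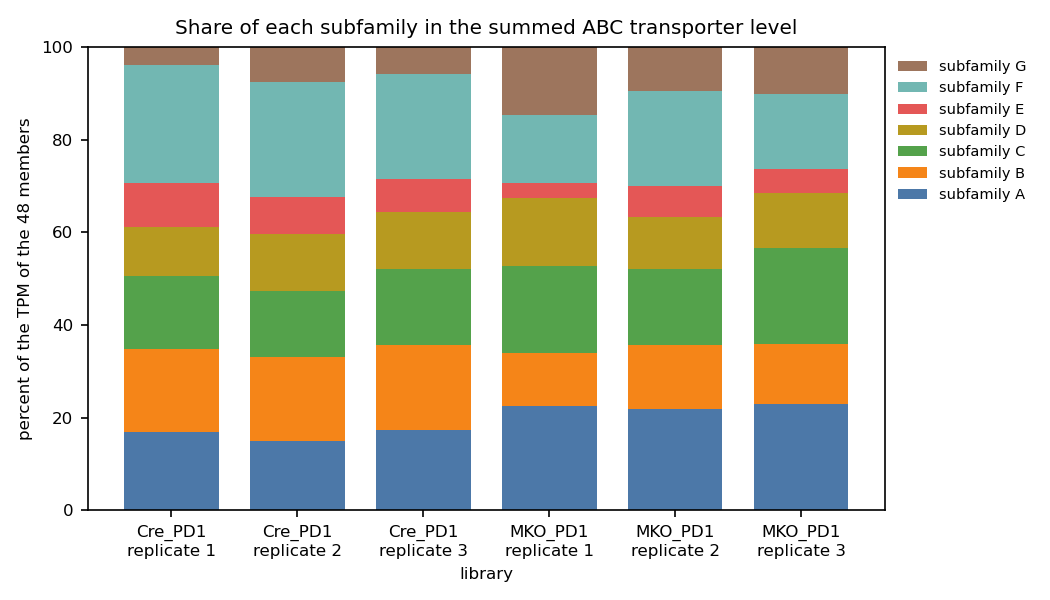
Stacked bars give the percent of the summed TPM of the 48 members that each subfamily held, 1 bar for each library. Subfamily G held 3.95 to 7.60% in the 3 Cre_PD1 libraries and 9.55 to 14.6% in the 3 MKO_PD1 libraries.

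Of the 48 members, 36 had at least 1 TPM in at least 3 libraries and were tested, and none passed the test over all genes. The smallest adjusted p of a member was 0.168 (limma, Benjamini-Hochberg over 16506 genes), shared by 13 members. Of all 16506 genes 2 passed (0.0121%), 1 higher and 1 lower in MKO_PD1 (0.00606% each). At an unadjusted p below 0.05 there were 11 members higher and 3 lower in MKO_PD1, 30.6% and 8.33% of those tested, against 8.47% and 19.5% of all genes. The groups did not overlap for 14 members that were higher in MKO_PD1, 38.9%, against 10.1% of all genes, and for 8 that were lower, 22.2%, against 28.9% of all genes. In either direction 39.0% of all genes were separate. The difference was above 0 for 17 members and below 0 for 19, against 27.1% and 72.9% of all genes. The median log2 difference was -0.10 over the tested members and -0.42 over all genes, on the scale of log2(TPM + 1) and as MKO_PD1 minus Cre_PD1. Another scaling, by median of ratios, moved the all-gene median to 0.0056 and the members' median to 0.38, and left 19 members separate and higher and 2 separate and lower. The shares of all genes that were separate at that scaling were not counted, so these counts are not read as a result about the family. The fit without MKO_PD1 replicate 2 called 17 members, 9 higher and 8 lower, in a setting that called 7.88% of all genes higher and 38.0% lower. Without MKO_PD1 replicates 1 and 3 no member passed and 5 had an unadjusted p below 0.05, in a fit that holds 1 MKO_PD1 library and takes its spread from Cre_PD1 alone. After adjustment for hepatocyte genes, with the mean log2 level of the 24 hepatocyte genes as a term in the fit, no member passed and 2 had an unadjusted p below 0.05. The smallest limma adjusted p of a member was then 0.9999. In this fit and in the one before it, the share of all genes at that unadjusted p was not counted. Of the 24 genes, 21 were themselves separate and higher in MKO_PD1, so with 6 libraries this term and the host genotype cannot be told apart. Adjusted differences below are given without intervals, and a value near 0 does not show what a difference came from. The labels name 3 mice per genotype without an experiment or litter, so p-values measure the spread between these libraries.

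**Figure D2:**
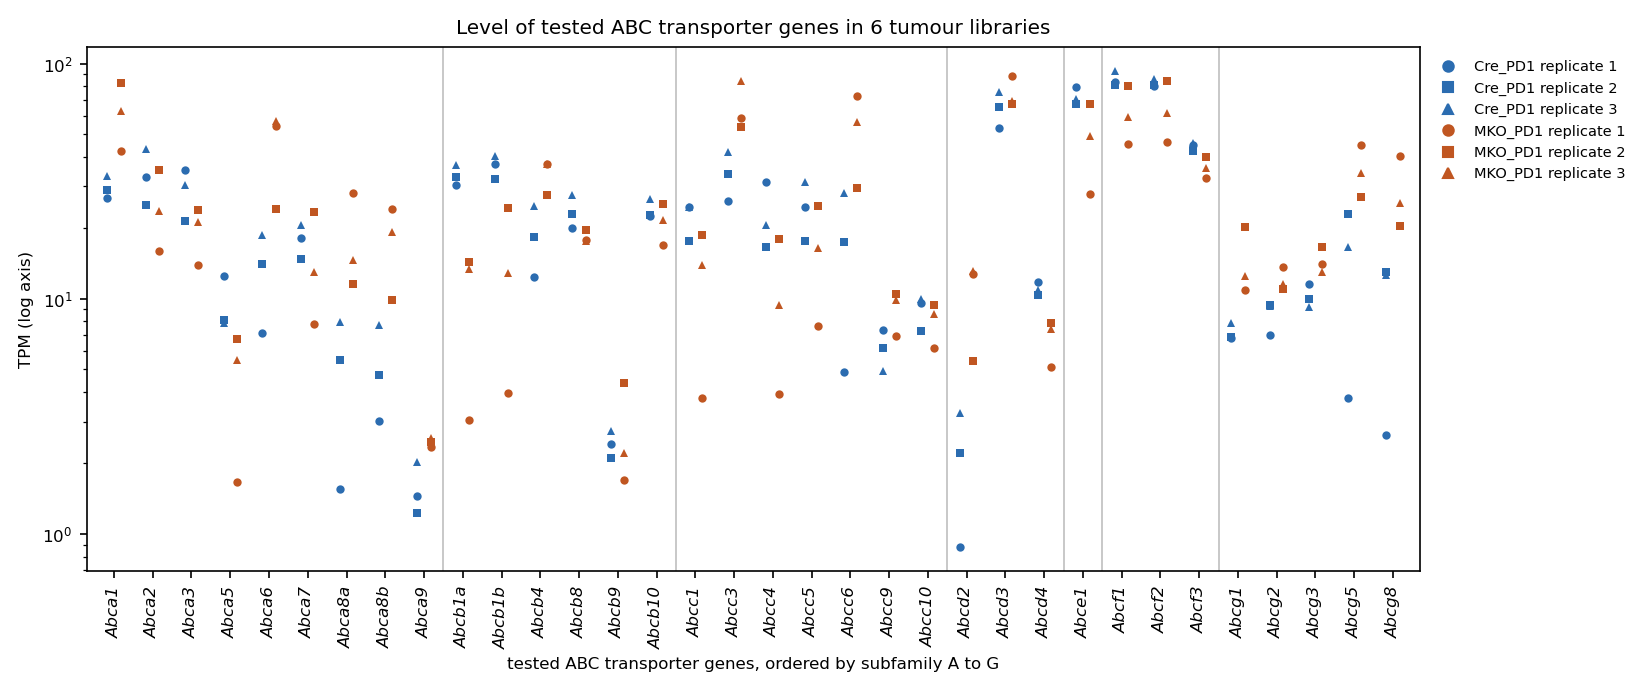
Points give the TPM (log axis) of 34 of the tested members in each library, blue for Cre_PD1 and orange for MKO_PD1, with a symbol for each replicate and lines between subfamilies. Mean levels over the 6 libraries run from 2.0 TPM for Abca9 to 73.7 TPM for Abcf1.

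**Figure D3:**
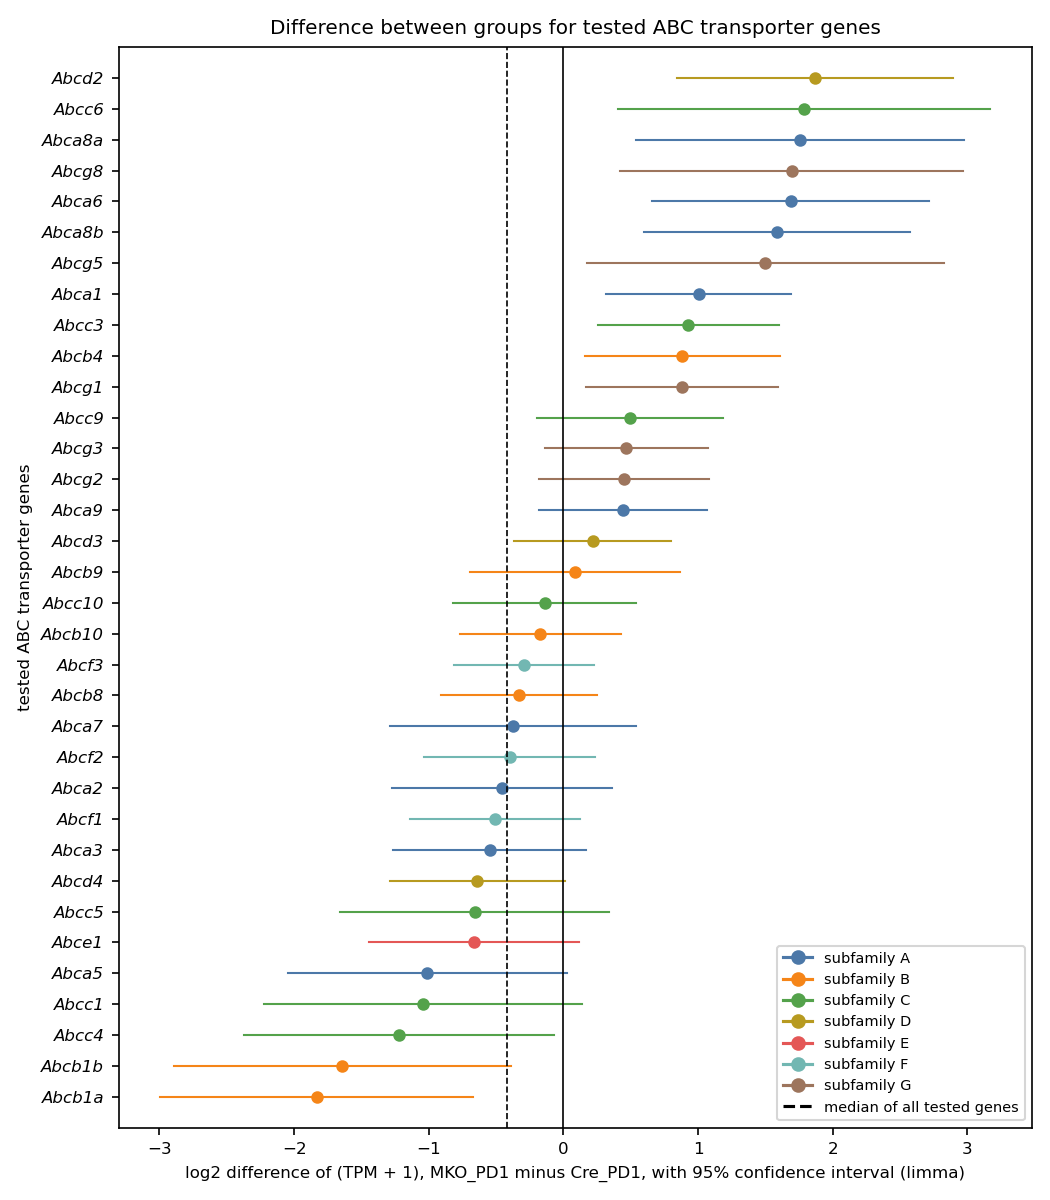
Points give the log2 difference of (TPM + 1), MKO_PD1 minus Cre_PD1, of 34 of the tested members, each with its 95% confidence interval from limma, coloured by subfamily. The members range from -1.83 for Abcb1a to 1.87 for Abcd2, and the dashed line marks the median of all tested genes at -0.42.

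The exporters of sterols and phospholipids were the group with most members higher in MKO_PD1: of 7, 6 were tested, 5 were separate and higher (10.1% of all genes), and 0 passed over all genes. Abca1, which loads cholesterol and phospholipid onto apolipoprotein A-I (ENSMUSG00000015243.4, chromosome 4, 53030787 to 53159895 on the minus strand of GRCm38, also named mm10), was at 26.9, 29.1 and 33.4 TPM in Cre_PD1 and 42.6, 82.4 and 62.9 TPM in MKO_PD1. Every MKO_PD1 library lay above every Cre_PD1 library, and replicate 2 was the highest. The means were 29.8 ± 3.29 and 62.6 ± 19.9 TPM, a log2 difference of 1.0 (SE 0.30, limma adjusted p = 0.168). Abcg1, which passes cholesterol to larger lipoproteins and was added here after its values were seen, was at 6.83, 6.87 and 7.86 TPM in Cre_PD1 and 10.9, 20.1 and 12.5 TPM in MKO_PD1. Its groups were separate too, with replicate 2 again the highest, and its log2 difference was 0.88 (SE 0.31, limma adjusted p = 0.168).

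Within Cre_PD1 both Abca1 and Abcg1 had the library order of the hepatocyte list, but that order rests on small gaps. The list took 3.87 and 3.89% in replicates 2 and 3, and Abcg1 was at 6.83 and 6.87 TPM in replicates 1 and 2. Within MKO_PD1 both genes were highest in replicate 2 and lowest in replicate 1, the reverse of the hepatocyte list. The log2 ratio of Abca1 to Abcg1 within a library was 2.05 ± 0.0626 in Cre_PD1 and 2.11 ± 0.190 in MKO_PD1, so the pair kept nearly the same proportion in all 6 tumours. The macrophage, neutrophil, T and NK cell, B cell, stellate cell and platelet lists were also highest in MKO_PD1 replicate 2. The Kupffer cell list, of resident liver macrophages, was lowest within MKO_PD1 in that replicate. It was at 227, 536 and 477 TPM in Cre_PD1 and 2287, 424 and 1483 TPM in MKO_PD1. So was the endothelial list, separate and higher at 247, 190 and 239 TPM in MKO_PD1 against 111, 143 and 128 TPM. The red cell and epithelial tumour lists were highest in Cre_PD1 replicate 1. The 12 neutrophil genes summed to 149, 244 and 118 TPM in Cre_PD1 and 301, 1233 and 466 TPM in MKO_PD1. Those groups were separate, with the same order within MKO_PD1 as Abca1 and Abcg1. The summed macrophage list overlapped between the groups, while all 12 of its genes had a difference above 0. Of these 12, 6 were separate and higher, against 10.1% of all genes. Against the summed macrophage list the log2 level of Abca1 was -6.82 ± 0.141 in Cre_PD1 and -6.22 ± 0.292 in MKO_PD1, and that of Abcg1 was -8.86 ± 0.194 and -8.33 ± 0.128, with separate groups in both cases. After adjustment for hepatocyte genes the log2 differences were 1.35 for Abca1 and 1.30 for Abcg1. These were the only 2 of the 36 tested members with an unadjusted p below 0.05 there. Neither was near passing over all genes (limma adjusted p = 0.9999 each), and the share of all genes at that unadjusted p was not counted. Without MKO_PD1 replicate 2 the log2 differences of Abca1 and Abcg1 were 0.78 and 0.63 (limma adjusted p = 0.0408 and 0.0632). That fit called 7.88% of all genes higher and 38.0% lower. Over the alternatives the limma adjusted p of both genes went up to 0.9999. The part of any of these cell types in the differences was not tested.

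Promoter sequences are shown for members that lay in like or opposite directions beside a neighbour, and for Abca1, a known target of the liver X receptors. RefSeq windows on GRCm38.p6 were found for 36 of the 48 members (43 windows), and the 250 bases before the start were searched on both strands. The motifs were the GC box GGGCGG, the CCAAT box, the TATA box TATAAA, the E-box CACGTG, the AP-1 motif TGANTCA, the GATA motifs AGATAA and, as another form, TGATAA, and the HNF4 motif CAAAGTCCA. Capitals mark every match, and no marked matches overlap.
Abca1 promoter, chr4:53159896-53160145, minus strand: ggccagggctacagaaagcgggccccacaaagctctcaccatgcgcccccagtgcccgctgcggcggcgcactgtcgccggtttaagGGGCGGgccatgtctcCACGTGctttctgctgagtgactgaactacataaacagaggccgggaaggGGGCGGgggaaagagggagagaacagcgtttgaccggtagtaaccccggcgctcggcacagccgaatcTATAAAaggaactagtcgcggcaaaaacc
The Abca1 window holds 2 GC boxes, an E-box and TATAAA. No liver X receptor motif was among those searched, so the capitals do not show whether the window holds one. The GC box was in 32.7% of all 32851 windows and in 46.5% of the family's windows, TATAAA in 12.4% and 11.6%, and CACGTG in 6.02% and 11.6%. A match describes letters only.

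Abcg5 and Abcg8 encode the partners of a heterodimer that secretes cholesterol and plant sterols into bile. The genes lie on opposite strands of chromosome 17, and their annotated spans overlap. Abcg5 (84658234 to 84683011, minus strand) was at 3.77, 22.9 and 16.7 TPM in Cre_PD1 and 45.1, 27.0 and 34.1 TPM in MKO_PD1. Abcg8 (84676302 to 84700333, plus strand) was at 2.62, 12.9 and 12.6 TPM in Cre_PD1 and 40.5, 20.3 and 25.4 TPM in MKO_PD1. Cre_PD1 replicate 1 was the lowest library and MKO_PD1 replicate 1 the highest for both genes, the same 2 libraries that were lowest and highest in the hepatocyte list. The log2 differences were 1.5 (SE 0.57) and 1.70 (SE 0.55), with a limma adjusted p of 0.168 each. After adjustment for hepatocyte genes they were -0.23 and -0.0089. The log2 ratio of Abcg5 to Abcg8 was 0.58 ± 0.215 in Cre_PD1 and 0.33 ± 0.152 in MKO_PD1. Their annotated exons share 82 bases on opposite strands, and the strand setting of the counting is not given, so reads there cannot be assigned. The bases between the RefSeq start site of Abcg5 and the Abcg8 RefSeq start site of highest coordinate, read along Abcg8, number 109.
Abcg5-Abcg8 interval, chr17:84683012-84683120, plus strand: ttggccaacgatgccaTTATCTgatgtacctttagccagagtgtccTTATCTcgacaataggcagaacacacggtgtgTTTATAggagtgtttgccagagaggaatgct
The capitals mark AGATAA in 2 places and TATAAA in 1, all on the minus strand. AGATAA was in 9.99% of all windows and in 11.6% of the family's.

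Abcb4, the phosphatidylcholine floppase of bile formation, was at 12.4, 18.3 and 24.8 TPM in Cre_PD1 and 37.2, 27.6 and 37.2 TPM in MKO_PD1. The groups did not overlap, and the log2 difference was 0.88 (SE 0.31, limma adjusted p = 0.168), or 0.17 after adjustment for hepatocyte genes. Abca7, a phospholipid transporter of many cell types that is also linked to phagocytosis, spread within MKO_PD1 from 7.82 TPM in replicate 1 to 23.3 TPM in replicate 2. Its log2 difference of -0.37 (95% interval -1.29 to 0.54) turned to 0.093 with median-of-ratios scaling. Abcg4, a sterol exporter known from neurons, had 37, 50 and 84 reads in the Cre_PD1 tumours against 14, 33 and 24 in MKO_PD1 and was under the filter.

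**Figure D4:**
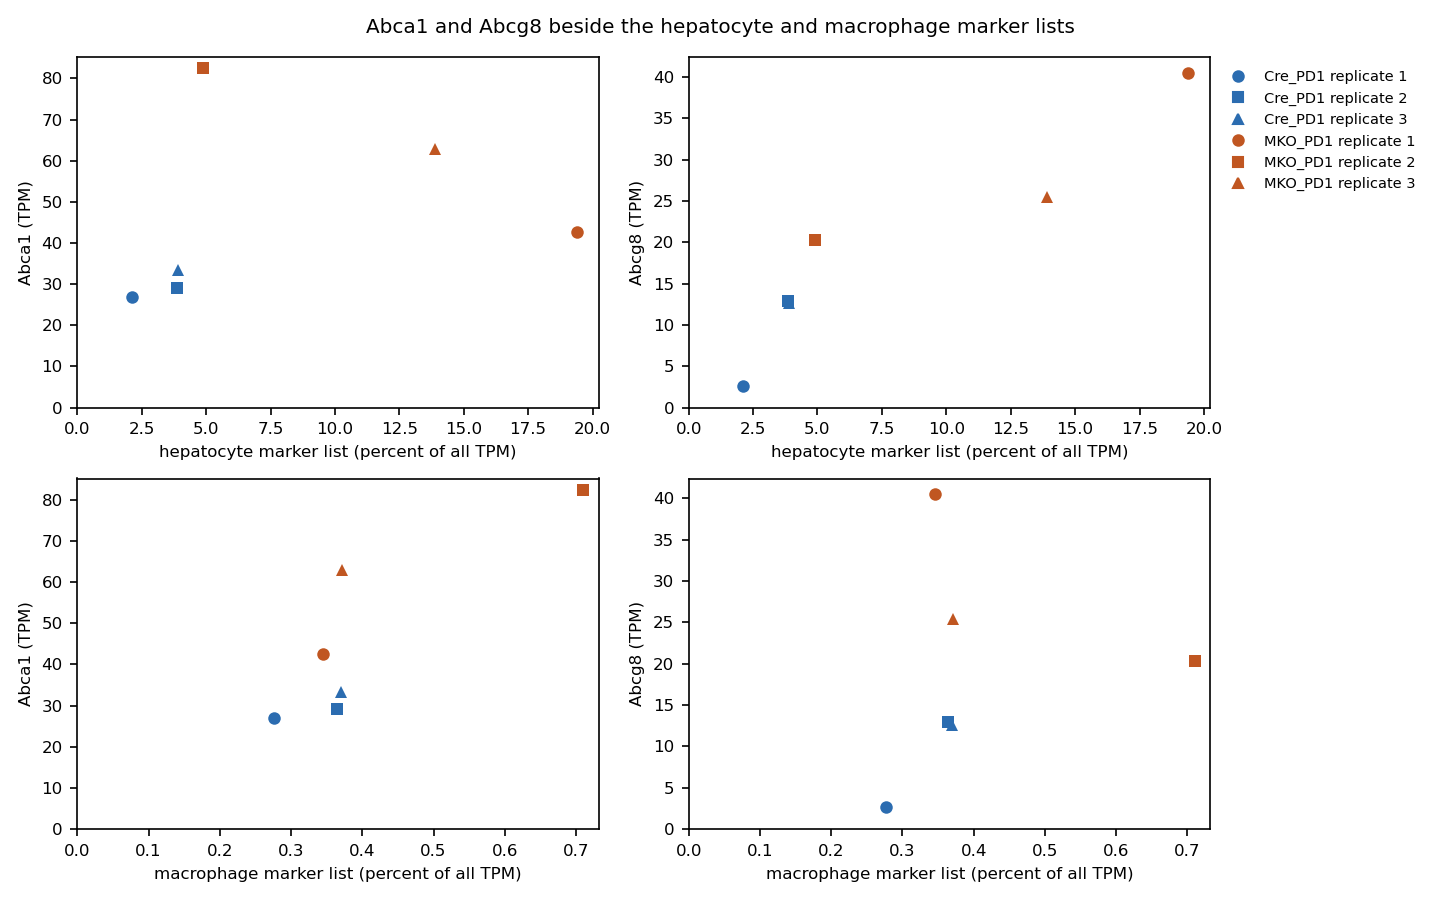
Points give the TPM of Abca1 (left) and Abcg8 (right) in each library against the percent of all TPM taken by the hepatocyte list (top) and the macrophage list (bottom). Abca1 is highest, at 82.4 TPM, in MKO_PD1 replicate 2, where macrophage genes took 0.710%, and Abcg8 is highest, at 40.5 TPM, in MKO_PD1 replicate 1, where hepatocyte genes took 19.4%.

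Of 18 genes that work with these exporters (liver X and retinoid X receptors, apolipoproteins, sterol handling enzymes), all were tested and 0 passed. Among them 10 were separate with higher levels and 2 with lower levels (10.1% and 28.9% of all genes), and the median log2 difference was 0.64 against -0.42 for all genes. Mylip, which marks the LDL receptor for breakdown, was at 7.15, 8.78 and 10.02 TPM in Cre_PD1 and 14.5, 22.0 and 19.1 TPM in MKO_PD1. Its MKO_PD1 libraries had the same order as those of Abca1, and no other separate and higher gene of the list had that order. The receptor gene Rxra was at 58.0 ± 17.6 and 124 ± 31.7 TPM. Lcat, which esterifies cholesterol on lipoproteins, was at 134 ± 62.3 and 479 ± 237 TPM, and Cyp27a1, which oxidises the sterol side chain, at 99.7 ± 57.3 and 378 ± 201 TPM. Rxra, Lcat and Cyp27a1 were each highest in MKO_PD1 replicate 1 and lowest in Cre_PD1 replicate 1, as was the hepatocyte list. The part of hepatocyte content in their differences was not tested. The limma adjusted p of Mylip, Rxra, Lcat and Cyp27a1 was 0.168. Srebf1, Pltp and Apoe, also in this list and separate and higher, had the reverse order of the MKO_PD1 libraries to Mylip. Srebf1 was at 76.8, 75.8 and 85.5 TPM in Cre_PD1 and 192, 89.7 and 153 TPM in MKO_PD1 (limma adjusted p = 0.169). The liver X receptor genes overlapped between the groups, with a higher MKO_PD1 mean for Nr1h3 and a lower mean for Nr1h2. The part of liver X receptor activity in these differences was not tested. The 2 separate and lower genes, named after their values were seen, were Rxrb at 59.3 ± 3.28 and 37.3 ± 10.5 TPM and Srebf2, the regulator of cholesterol synthesis, at 84.7 ± 16.6 and 48.8 ± 10.8 TPM.

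The other lipid transporters of subfamily A went both ways, and the contrast ran through a single gene cluster. Abca8b, Abca8a, Abca9, Abca6 and Abca5 follow each other on chromosome 11, all on the minus strand and with no other coding gene between them. Abca6 (110176820 to 110251776), a little studied lipid transporter of liver, was at 7.18, 14.0 and 18.7 TPM in Cre_PD1 and 54.3, 24.2 and 57.0 TPM in MKO_PD1. Its groups were separate, with a log2 difference of 1.69 (SE 0.45). Abca8a was at 1.55, 5.48 and 7.99 TPM against 28.0, 11.6 and 14.7 TPM, and its log2 difference was 1.75 (SE 0.53).

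Abca8b, its close paralog, which has been linked to cholesterol export in hepatocytes, was at 3.01, 4.73 and 7.76 TPM in Cre_PD1 and 24.1, 9.84 and 19.1 TPM in MKO_PD1 (a log2 difference of 1.59, SE 0.43). The limma adjusted p of Abca6, Abca8a and Abca8b was 0.168. Abca9 was low in all libraries, at 1.56 ± 0.409 and 2.45 ± 0.110 TPM, with separate groups. Abca5, a lysosomal and late endosomal transporter at the end of the cluster, lay the other way: 12.5, 8.09 and 7.87 TPM in Cre_PD1 and 1.65, 6.73 and 5.48 TPM in MKO_PD1. The groups were separate and the log2 difference was -1.01 (SE 0.45, limma adjusted p = 0.182), but 0.074 after adjustment for hepatocyte genes. Within a library the log2 ratio of Abca6 to Abca5 was 0.41 ± 1.08 in Cre_PD1 and 3.42 ± 1.60 in MKO_PD1, and such a ratio does not depend on scaling. The order of the libraries in the hepatocyte list was that of Abca8a, Abca8b, Abcb4 and Abcc6 and the reverse of that of Abca5. It was the order of 2.90% of all tested genes and the reverse for 5.79%. These orders hold near ties: the list took 3.87 and 3.89% in Cre_PD1 replicates 2 and 3. Abcb4 was at 37.245 and 37.235 TPM in MKO_PD1 replicates 1 and 3. The log2 differences of Abca6, Abca8a and Abca8b were 0.30, 0.18 and 0.39 after adjustment for hepatocyte genes.

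Abca2, an endolysosomal lipid transporter, was at 32.9, 25.1 and 43.2 TPM in Cre_PD1 and 15.9, 35.4 and 23.6 TPM in MKO_PD1, and the groups overlapped. Its log2 difference of -0.45 (95% interval -1.27 to 0.36) was 0.032 with median-of-ratios scaling. Abca3, which fills lamellar bodies with surfactant lipid in lung, was at 29.0 ± 7.0 and 19.6 ± 5.06 TPM (log2 difference -0.55, 95% interval -1.27 to 0.17). The retinal transporter Abca4 had 18, 18 and 11 reads in the Cre_PD1 tumours against 3, 11 and 1 in MKO_PD1. The skin lipid transporter Abca12 had at most 3 reads in a library and Abca13 at most 29, and all 3 were under the filter.

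**Figure D5:**
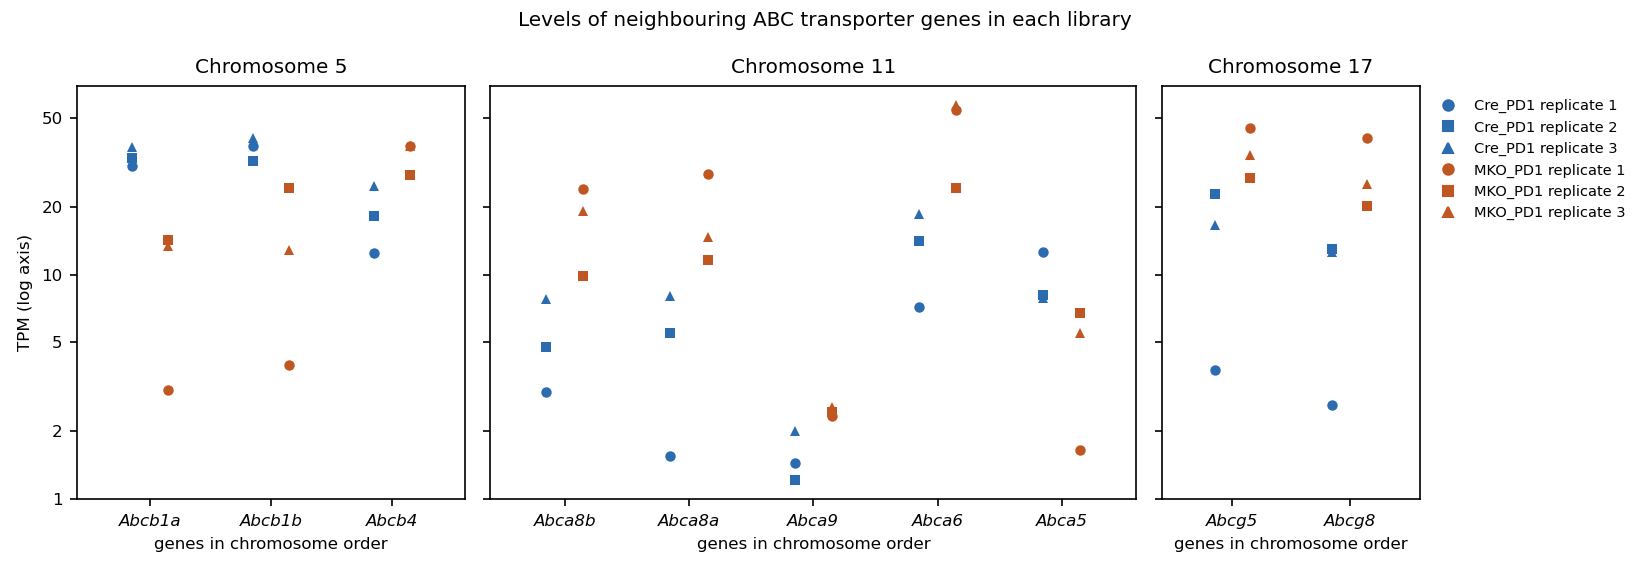
Points give the TPM (log axis) in each library of neighbouring members on chromosomes 5, 11 and 17, in chromosome order. Abcb1a and Abcb1b have all Cre_PD1 points above the MKO_PD1 points and Abcb4 all below, and Abca5 lies opposite to Abca6, Abca8a and Abca8b.

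The genes of drug and conjugate efflux went both ways. Of 10 members, 9 were tested, 3 were separate with higher and 2 with lower levels (10.1% and 28.9% of all genes), and 0 passed. The 2 P-glycoprotein genes were the lowest members of the family in MKO_PD1 relative to Cre_PD1. Abcb1a (ENSMUSG00000040584.8, chromosome 5, 8660077 to 8748575, plus strand) was at 30.4, 32.9 and 36.9 TPM in Cre_PD1 and 3.06, 14.3 and 13.4 TPM in MKO_PD1. Abcb1b (8798147 to 8866315) was at 37.2, 32.1 and 40.6 TPM against 3.96, 24.2 and 12.8 TPM. Every MKO_PD1 library lay below every Cre_PD1 library for both, and MKO_PD1 replicate 1, in which the hepatocyte list took 19.4% of TPM, was the lowest by a wide margin.

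The log2 differences were -1.83 (SE 0.50) for Abcb1a and -1.64 (SE 0.54) for Abcb1b, with a limma adjusted p of 0.168 each. They stayed below 0 in all 18 alternatives, between -2.16 and -1.12 for Abcb1a and between -2.18 and -0.44 for Abcb1b. The values nearest to 0 were those after adjustment for hepatocyte genes. The 2 genes are paralogs, and whether reads were shared between them in the counting was not tested. Their log2 ratio overlapped between the groups (-0.13 ± 0.162 and -0.36 ± 0.415). Epithelial tumour markers, which were also lower in MKO_PD1, were at 2506, 9975 and 6714 TPM in its replicates 1, 2 and 3, with the same lowest and highest library as Abcb1b. The part of tumour cell content in these differences was not tested.

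Abcb4 lies next to Abcb1b on the same strand, 27401 bases away with no coding gene between, and its values went in the opposite direction. The log2 ratio of Abcb1b to Abcb4 was 1.58, 0.82 and 0.71 in Cre_PD1 and -3.23, -0.19 and -1.54 in MKO_PD1. The windows before the RefSeq starts of these neighbours are set side by side, with the same motifs in capitals.
Abcb1b promoter, chr5:8797897-8798146, plus strand: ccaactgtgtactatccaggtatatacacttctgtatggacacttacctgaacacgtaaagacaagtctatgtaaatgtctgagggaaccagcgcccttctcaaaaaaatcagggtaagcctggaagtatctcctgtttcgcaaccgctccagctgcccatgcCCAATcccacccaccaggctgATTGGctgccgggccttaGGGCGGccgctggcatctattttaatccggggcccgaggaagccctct
Abcb4 promoter, chr5:8893471-8893720, plus strand: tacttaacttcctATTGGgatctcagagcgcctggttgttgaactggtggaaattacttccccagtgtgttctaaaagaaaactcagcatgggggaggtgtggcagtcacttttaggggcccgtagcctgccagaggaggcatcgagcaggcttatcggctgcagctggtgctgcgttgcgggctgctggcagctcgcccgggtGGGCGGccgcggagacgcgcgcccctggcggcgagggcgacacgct
Both windows hold a GC box near the start site. Abcb1b has CCAAT in 2 places, once on each strand, and Abcb4 has it in 1 on the minus strand. CCAAT was in 33.8% of all windows and in 27.9% of the family's.

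Abcc1, a broad exporter of glutathione conjugates, was at 24.6, 17.7 and 24.5 TPM in Cre_PD1 and 3.78, 18.6 and 13.8 TPM in MKO_PD1, with overlapping groups (log2 difference -1.04, SE 0.51, limma adjusted p = 0.203). Abcc4, which exports cyclic nucleotides and prostaglandins, was at 22.8 ± 7.53 and 10.4 ± 7.07 TPM, a log2 difference of -1.22 (SE 0.50, limma adjusted p = 0.170). Abcc5, another cyclic nucleotide exporter, was at 24.5, 17.6 and 31.4 TPM in Cre_PD1 and 7.68, 24.9 and 16.5 TPM in MKO_PD1. For all 3 genes MKO_PD1 replicate 1 was the lowest library, and replicate 2 lay inside the Cre_PD1 range. After adjustment for hepatocyte genes the log2 differences were 0.060, 0.24 and 0.18.

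The 3 members separate and higher were Abcc3, Abcc6 and Abcg2. Abcc3, which returns glucuronides and bile salts to blood across the sinusoidal membrane, was at 26.1, 33.9 and 42.1 TPM in Cre_PD1 and 58.6, 53.8 and 84.5 TPM in MKO_PD1 (a log2 difference of 0.93, SE 0.29, limma adjusted p = 0.168). The groups were separate, and the difference was 0.43 after adjustment for hepatocyte genes. Abcc6, which mediates ATP release from hepatocytes and so protects tissues from calcification, was at 4.87, 17.5 and 28.2 TPM in Cre_PD1 and 72.9, 29.6 and 56.5 TPM in MKO_PD1. Its groups were separate by little, at 28.2 and 29.6 TPM, and its log2 difference of 1.79 (SE 0.60, limma adjusted p = 0.168) was -0.19 after adjustment for hepatocyte genes. Abcg2, an exporter of urate, porphyrins and drugs, was at 8.58 ± 1.37 and 12.0 ± 1.36 TPM with separate groups (log2 difference 0.45, 95% interval -0.18 to 1.08, and 0.080 after adjustment for hepatocyte genes). Abcc10 was at 8.93 ± 1.47 and 8.06 ± 1.67 TPM (log2 difference -0.14, 95% interval -0.82 to 0.54, and 0.31 with median-of-ratios scaling). Abcc12 had 20 to 88 reads and was under the filter.

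Of 9 regulators of efflux genes tested, 4 were separate with higher and 1 with lower levels (10.1% and 28.9% of all genes), and 0 passed. The xenobiotic receptor genes had higher means in MKO_PD1: the Cre_PD1 and MKO_PD1 means of Nr1i2 were 11.7 ± 4.46 and 33.7 ± 9.19 TPM, and those of Nr1i3 were 3.16 ± 1.13 and 10.5 ± 2.80 TPM. The fatty acid receptor gene Ppara was at 8.24 ± 4.92 and 26.3 ± 6.41 TPM, and the bile acid receptor gene Nr1h4 at 46.7 ± 8.86 and 104 ± 33.4 TPM. All 4 are expressed in hepatocytes, and their limma adjusted p was 0.168.

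Subfamily D imports fatty acyl-CoA into peroxisomes, and its members differed among themselves. Abcd2 (ENSMUSG00000055782.9, chromosome 15, 91145871 to 91191799), a transporter of very long and polyunsaturated acyl chains, had the smallest p in the family. It was at 0.877, 2.21 and 3.26 TPM in Cre_PD1 and 12.7, 5.44 and 13.2 TPM in MKO_PD1, and the groups were separate. There were 53, 158 and 170 reads in Cre_PD1 against 991, 323 and 828 in MKO_PD1, a log2 difference of 1.87 (SE 0.45, limma adjusted p = 0.168). The difference was 0.57 after adjustment for hepatocyte genes.

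Abcd3, the most abundant peroxisomal member, was at 52.9, 65.3 and 75.7 TPM in Cre_PD1 and 88.2, 67.5 and 69.3 TPM in MKO_PD1, and its groups overlapped (log2 difference 0.22, 95% interval -0.37 to 0.80). Of 15 genes of peroxisomal assembly and fatty acid oxidation, 2 were separate with higher and 1 with lower levels (10.1% and 28.9% of all genes), and 0 passed. Acox2, which shortens bile acid precursors, was at 21 ± 7.13 and 62.4 ± 26.3 TPM, Slc27a2, an acyl-CoA synthetase, at 138 ± 94.1 and 380 ± 149 TPM, Ehhadh at 24.4 ± 16.5 and 54 ± 15.7 TPM, and Amacr at 35.7 ± 16.9 and 78.3 ± 31.1 TPM.

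Abcd4, unlike the rest of its subfamily, works in lysosomes, where it releases cobalamin. It was at 11.7, 10.4 and 10.9 TPM in Cre_PD1 and 5.14, 7.89 and 7.41 TPM in MKO_PD1. The groups were separate, the log2 difference was -0.64 (SE 0.28, limma adjusted p = 0.181), and it was below 0 in all 18 alternatives, with -0.19 under median-of-ratios scaling the nearest to 0 and -0.31 after adjustment for hepatocyte genes. Its partner Lmbrd1 was at 27.4 ± 1.19 and 31.3 ± 1.14 TPM. The cobalamin uptake receptor gene Cd320 was at 15.5 ± 1.06 and 7.59 ± 2.47 TPM (limma adjusted p = 0.168), and Mmadhc, which sorts cobalamin in the cell, at 98.1 ± 1.74 and 64.3 ± 13.5 TPM. Of the 7 cobalamin genes 2 were separate with higher and 2 with lower levels (10.1% and 28.9% of all genes), and 0 passed. The lysosomal peptide transporter Abcb9 was at 2.41 ± 0.317 and 2.77 ± 1.43 TPM, with its highest value, 4.40 TPM, in MKO_PD1 replicate 2.

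The mitochondrial members described here had small differences. Abcb10, which supports haem synthesis, was at 22.4, 22.6 and 26.5 TPM in Cre_PD1 and 17, 25.2 and 21.6 TPM in MKO_PD1, and the groups overlapped (log2 difference -0.17, 95% interval -0.77 to 0.43). Abcb8 was at 23.4 ± 3.86 and 18.3 ± 1.03 TPM with separate groups (log2 difference -0.33, 95% interval -0.91 to 0.25). These intervals do not show that the genes were alike in the groups. With median-of-ratios scaling these differences were 0.31 and 0.16. Abcb6, a porphyrin transporter, had 23 to 63 reads and was under the filter. Of 15 iron-sulphur and haem genes 4 were separate with higher and 8 with lower levels (10.1% and 28.9% of all genes), and 0 passed. Alas1, the first enzyme of haem synthesis, was at 64.6 ± 28.1 and 159 ± 21.9 TPM and Ppox, near its end, at 48.6 ± 6.12 and 27.8 ± 8.51 TPM, while the mitochondrial iron importer gene Slc25a28 was at 66.1 ± 8.49 and 39.4 ± 17.7 TPM.

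The members without membrane spans were the most abundant of the family in Cre_PD1, apart from Abcf3. Abce1, which splits ribosomes for recycling, was at 79.3, 67.3 and 70.5 TPM in Cre_PD1 and 27.9, 67.1 and 49.1 TPM in MKO_PD1. The groups were separate only by the gap from 67.1 to 67.3 TPM (log2 difference -0.66, SE 0.34, limma adjusted p = 0.211). Abcf1, which binds initiation factor eIF2, was at 83.7, 80.8 and 93.1 TPM against 45.4, 80.2 and 59.0 TPM (log2 difference -0.51, SE 0.27, limma adjusted p = 0.226).

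Abcf2 was at 79.9, 81.3 and 86.1 TPM in Cre_PD1 and 46.5, 84.4 and 61.4 TPM in MKO_PD1, and Abcf3 at 45.2, 42.5 and 45.8 TPM and 32.7, 40.1 and 35.9 TPM. MKO_PD1 replicate 2 was level with the controls for Abce1, Abcf1 and Abcf2, while replicate 1 was the lowest library for all 4 genes. The log2 differences of Abcf2 and Abcf3, -0.40 and -0.29, were close to the median of all genes (-0.42) and turned to 0.10 and 0.20 with median-of-ratios scaling. Of 9 ribosome partner genes all had a difference below 0, as had 72.9% of all genes, 5 were separate and lower, as were 28.9% of all genes, and 0 passed. Rack1, a ribosomal scaffold, was at 815 ± 147 and 419 ± 136 TPM, Eif2s1 at 72.1 ± 6.25 and 42.4 ± 18.5 TPM, the release factor gene Etf1 at 171 ± 15.5 and 117 ± 35.1 TPM, and Gcn1 at 22.9 ± 4.56 and 14.6 ± 5.72 TPM.

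Of the sulphonylurea receptor genes, which regulate potassium channels, Abcc9, found in vascular muscle and pericytes, was at 7.33, 6.17 and 4.92 TPM in Cre_PD1 and 6.97, 10.5 and 9.85 TPM in MKO_PD1, with overlapping groups (log2 difference 0.50, 95% interval -0.20 to 1.19). Its channel partner Kcnj8 was at 10.4 ± 3.81 and 11.5 ± 2.19 TPM. Abcc8, the form of pancreatic beta cells, had 16, 0 and 1 reads in the Cre_PD1 tumours against 1, 0 and 0 in MKO_PD1. Abcg3, a rodent gene, was at 11.6, 9.95 and 9.19 TPM in Cre_PD1 and 14.0, 16.7 and 13.0 TPM in MKO_PD1. Its groups were separate (log2 difference 0.47, SE 0.26, limma adjusted p = 0.241). Abca15 and Abca16 had 0 reads in all 6 libraries, which allows up to 3 reads in a library by counting error alone, and Abca14, Abca17 and Abcb5 had at most 12, 8 and 1 reads.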

How the data were processed

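Polyadenylated RNA of 6 tumours was analysed. Per the submitters' processing notes, reads were aligned with STAR 2.7.10a to mm10 and counted with featureCounts 2.0.3 of Subread. The deposited values, named as TPM by the authors, are a length-normalised read signal whose columns sum to 70363 to 105281. How the authors made that signal is not given in the sources used here. Each column was rescaled to 1000000 (TPM). Each value times the GENCODE M21 exon length, divided by 1 constant, gave whole reads within 0.001 for 98.5% of 29802 genes, and for all 48 members. A read on 1 kb of exon amounts to 0.0763 to 0.114 TPM.

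Genes reaching 1 TPM in 3 or more libraries were tested with limma 3.58.1 in R 4.3.3 on log2(TPM + 1), with its trend option, without covariates, and with Benjamini-Hochberg adjustment (threshold 0.05). Fold changes of low genes are understated on this scale. Groups are separate where their ranges do not overlap. Levels are mean ± SD of 3 libraries. The procedure was tested on simulated data, in which all genes shared the same spread setting and most genes were unchanged. That differs from these libraries, so it does not show how the test behaves here. The members and gene lists were chosen with earlier results of these data known. Values in every library are given for the 3 members of highest level in each subfamily and the 10 of smallest p, and partner genes are the 4 of smallest p in their list, with Abcg1, Abca5, Abcc1 and others added after their values were seen. Exons of 11 members overlap another annotated gene, so their reads may hold some of its RNA. Alternatives changed the pseudocount (0.1, 0.5), the filter (none, 5 TPM), scaling, test, block and libraries. The adjustment for hepatocyte genes, and the fit that leaves out MKO_PD1 replicates 1 and 3 together, were added after seeing the data. The design had been written for TPM; the unit found was the signal above, so the same test was run on rescaled values. Single values of 2 members and of some partner genes are not reported here, and counts, sums and medians include them.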

Additional observations from a re-analysis of the deposited data

How the results depend on the processing

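Of 18 alternatives, 17 called none of the 36 tested members and 1, without MKO_PD1 replicate 2, called 17, so the range on leaving out 1 library was 0 to 17. The count at an unadjusted p below 0.05, 14, ranged from 9 to 23 on leaving out 1 library. It was 2 after adjustment for hepatocyte genes and 5 without MKO_PD1 replicates 1 and 3, where that group is 1 library, assumed to vary like Cre_PD1. The count of members separate and lower, 8, was 2 with median-of-ratios scaling, 5 with the hepatocyte list removed before scaling, and 8 to 16 on leaving out 1 library. The shares of all genes that were separate, or that had an unadjusted p below 0.05, were not counted in the alternatives. So neither these counts nor those that follow set the family apart from other genes. The split at an unadjusted p was 11 higher and 3 lower, against 16 and 2 with median-of-ratios scaling and 17 and 2 with limma voom on recovered reads. With the replicate number as a block, 0 members were called and 12 had an unadjusted p below 0.05. The paired deviations correlated at -0.42, -0.26 and 0.049, and no Cre_PD1 library matched its own number best, so the numbers were not used as pairs.

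Among the members reported, signs turned as follows, as log2 differences, and the cause was not tested. With median-of-ratios scaling Abca2 was at 0.032, Abca7 0.093, Abcb8 0.16, Abcb10 0.31, Abcc10 0.31, Abcf2 0.10 and Abcf3 0.20. With limma voom Abca2 was at 0.027, Abca7 0.11, Abcb8 0.14, Abcb10 0.31, Abcc10 0.34, Abcf2 0.10 and Abcf3 0.20. With quantile normalization Abca7 was at 0.020, Abcb8 0.057, Abcb10 0.23, Abcc10 0.20 and Abcf3 0.11. Abcc10 was at 0.019 without MKO_PD1 replicate 1, and Abcb9 was at -0.21 without MKO_PD1 replicate 2. On leaving out 1 library Abcb9 ranged from -0.21 to 0.29 and Abcc10 from -0.27 to 0.019. After adjustment for hepatocyte genes Abca2 was at 0.14, Abca3 0.091, Abca5 0.074, Abca7 0.45, Abcb10 0.026, Abcc1 0.060, Abcc4 0.24, Abcc5 0.18, Abcc6 -0.19, Abcc10 0.22, Abcd3 -0.21, Abce1 0.079, Abcf2 0.0099, Abcg5 -0.23 and Abcg8 -0.0089. Without MKO_PD1 replicates 1 and 3 Abca2 was at 0.10, Abca7 0.38, Abcb10 0.083, Abcc5 0.057, Abcc10 0.081 and Abcf2 0.035. Members with few reads are known least precisely.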

Other observations

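The ABC genes that carry other symbols are not members by name. Tap1 and Tap2, which carry peptides to class I molecules, were in Cre_PD1 at 122, 139 and 172 TPM and 57.7, 67.4 and 80.7 TPM. In MKO_PD1 replicates 1, 2 and 3 Tap1 was at 50.4, 219 and 88.9 TPM and Tap2 at 26.0, 104 and 43.7 TPM. The MKO_PD1 libraries lay on both sides of the Cre_PD1 range for both genes, and the log2 differences were -0.52 and -0.46 (limma adjusted p = 0.453 and 0.487). T and NK cell genes summed to 52.5, 360 and 84.6 TPM in the same 3 libraries and to 83.6, 115 and 154 TPM in Cre_PD1. Cftr, a chloride channel of ducts, was at 0.264 ± 0.223 and 0.531 ± 0.750 TPM and was under the filter.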
